A study of Mus musculus with 6 samples.

Results

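Regulators that link pluripotent cells to the undifferentiated germ cells of the testis were followed here in spermatogonia that lack the transcription factor PLZF. The 6 genes were Pou5f1, Sall4, Lin28a, Utf1, Neurog3 and Sox3. Their members on the arrays were all probe sets annotated with exactly 1 of these symbols, which gave 18 probe sets out of 36701 on 3 chips, for 6 of 15964 named genes. Pou5f1 had 3 probe sets, Sall4 3, Lin28a 2, Utf1 3, Neurog3 2 and Sox3 5.

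The RNA was total RNA labelled as spermatogonia from mice 1 week old on a 129sv and C57Bl6 background. The WT samples carry no named allele, and the Null samples carry a knock out of Zfp145, the earlier name of Zbtb16, which encodes PLZF. Each genotype was measured on 1 array of each of 3 Affymetrix chips, U74Av2, U74Bv2 and U74Cv2, so 6 arrays hold no replicates. The labels do not give the deleted part of the gene, the number of animals pooled or the way the cells were isolated, and no treatment is named. No p-value is given, since no difference has a replicate check, and the number of arrays limits the precision.

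Undifferentiated spermatogonia are the pool that holds the stem cells of the testis, and they share several regulators with embryonic stem cells and primordial germ cells. Pou5f1 encodes the POU homeodomain factor OCT4, Sall4 a zinc finger factor that binds PLZF and the NuRD corepressor complex, and Lin28a an RNA-binding protein that blocks maturation of let-7 microRNAs. Utf1 encodes a chromatin-associated protein of pluripotent cells, Neurog3 a basic helix-loop-helix factor of progenitor spermatogonia, and Sox3 an X-linked SOX factor with an HMG box. PLZF itself is a repressor needed to keep the stem cell pool as mice age.

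Pou5f1, Utf1 and Lin28a each had a probe set whose signal passed the detection floor in only 1 genotype, and the regulatory sequence just before their starts is shown for that reason. The 250 bases before the RefSeq start are given 5′ to 3′ from the RefSeq promoter table of GRCm38.p6, at chr17:35505782-35506031 on the plus strand, chr7:139943606-139943855 on the plus strand and chr4:134018817-134019066 on the minus strand. Capitals mark matches, on either strand, to the GC box GGGCGG, the nuclear receptor half-site AGGTCA, the octamer ATGCAAAT, the E-box CANNTG and the TATA box TATAAA.
Pou5f1: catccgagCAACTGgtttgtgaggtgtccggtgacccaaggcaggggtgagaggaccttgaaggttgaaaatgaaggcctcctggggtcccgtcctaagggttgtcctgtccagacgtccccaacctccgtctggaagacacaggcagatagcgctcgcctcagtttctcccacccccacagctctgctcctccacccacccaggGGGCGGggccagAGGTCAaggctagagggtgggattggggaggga
Utf1: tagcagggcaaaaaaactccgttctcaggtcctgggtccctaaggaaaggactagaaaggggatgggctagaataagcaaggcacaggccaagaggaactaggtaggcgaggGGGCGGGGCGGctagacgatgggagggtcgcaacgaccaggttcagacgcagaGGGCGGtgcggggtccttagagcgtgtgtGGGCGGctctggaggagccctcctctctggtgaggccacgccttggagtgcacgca
Lin28a: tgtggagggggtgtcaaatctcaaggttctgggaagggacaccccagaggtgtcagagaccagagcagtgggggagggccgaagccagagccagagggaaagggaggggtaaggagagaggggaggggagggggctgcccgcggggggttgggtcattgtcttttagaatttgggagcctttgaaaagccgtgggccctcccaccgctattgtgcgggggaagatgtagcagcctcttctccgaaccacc
The Pou5f1 window held 1 GC box at -45, counted from the start, 1 half-site at -33 and 1 E-box at -242. The Utf1 window held 4 GC box matches, of which the first pair overlap in 1 run of capitals, and none of the other motifs. None of the 5 motifs was found in the Lin28a window. Among 27025 promoters of the same length, 32.9% held the GC box, 13.8% the half-site, 66% the E-box, 13% the TATA box and 1.61% the octamer. GC content was 62% for Pou5f1, 61.6% for Utf1 and 61.2% for Lin28a, against a median of 52% over all genes. The table matched 4 of the 6 genes, the fourth being Neurog3, whose window held 1 E-box at -165. A match describes the letters only, and the arrays do not measure binding.

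Values are linear intensities as deposited, and log2 ratios are Null over WT within a chip after the Null array was scaled to the WT array. A floor was set at the 40th percentile of each chip, at 98.3, 165 and 124 on U74Av2, U74Bv2 and U74Cv2. Where 1 array was under the floor the fold is a bound, and where both were, no ratio is given. The scatter between ratios of 1 gene was taken over all genes with several probe sets above the floor on both arrays of a chip. On U74Av2 this gave a spread of 0.35 for low-level, 0.27 for middle-level and 0.15 for high-level probe sets. This spread was 0.35, 0.34 and 0.25 on U74Bv2 and 0.56, 0.47 and 0.31 on U74Cv2, and it stands beside each ratio as its error. It covers technical scatter and differences between transcripts, not animals. Bounds had no part in it, so beside a bound it can be too small. Over all probe sets above the floor on 1 array, ratios had a scaled median absolute deviation of 0.36, 0.48 and 0.80 on the 3 chips. Over those above the floor on both arrays, this deviation was 0.27, 0.32 and 0.43. Intensities of different probe sets were not compared with each other, so no order of the 6 genes by level is given. In bulk RNA, fewer cells of a type and less RNA per cell cannot be told apart. The targeted gene Zbtb16 was lower in the Null array, at 770.2 in WT and 158.1 in Null on U74Av2 (log2 ratio -2.29) and at 1156.8 and 510.8 on U74Cv2 (-1.20). Bacterial and phage control transcripts, added to the samples or to the hybridisation, had median log2 ratios of 0.27, 0.23 and 0.26 on the 3 chips. Setting them to 0 lowers the ratio of each probe set above the floor in both genotypes by about that much, and the bounds by less.

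Of the 18 member probe sets, 13 lay above the floor on at least 1 array, 9 of them on both arrays and 4 on 1 array. Sox3 had 3 of the 5 probe sets that were under the floor on both arrays, and Pou5f1 and Neurog3 had 1 each. On U74Av2 and U74Bv2 together all 7 measured probe sets of Pou5f1, Sall4, Lin28a, Utf1 and Sox3 had ratios above 0. On U74Cv2 2 of 6 were above 0 and 4 below. Over all measured probe sets 48.1%, 50.3% and 49.1% were above 0 on the 3 chips. Of the 7, Utf1 passed the floor only through its Null array, and 2 are Sox3 probe sets of 1 accession. The 5 probe sets under the floor, all on U74Av2 and U74Bv2, read lower in Null. The count of 7 above 0 thus depends partly on the floor. With the control transcripts taken as 0, Pou5f1 on U74Av2 turned to -0.10. Sall4 on U74Av2 fell to a value just above 0 that rounds to 0.00, and the other 5 of the 7 stayed above 0.

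**Figure D1:**
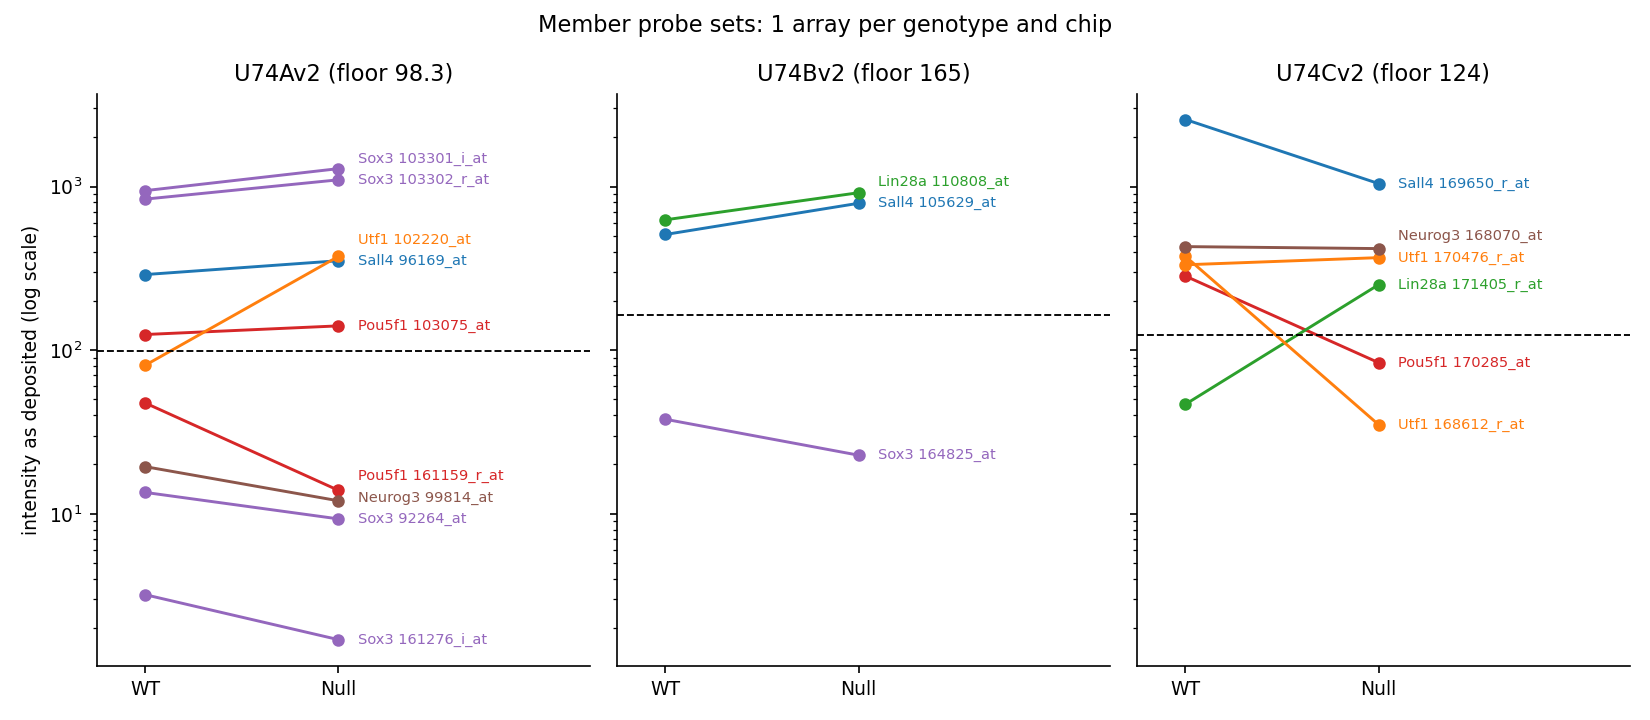
Intensity of each member probe set in the WT and the Null array of each chip, on a log axis, with a line joining the 1 array of each genotype and a dashed line at the chip's floor. Lin28a and Sall4 on U74Bv2 and the Sox3 probe sets above the floor on U74Av2 are higher in Null. Lower are Sall4, Pou5f1 and 1 Utf1 probe set on U74Cv2, and the Sox3 probe sets under the floor.

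At least 2-fold differences were found for 4 of the 13 measured member probe sets, 1 higher in Null on U74Av2 and 3 lower on U74Cv2. On U74Av2, U74Bv2 and U74Cv2, 0.332%, 0.815% and 5.68% of all measured probe sets were at least 2-fold higher. The share at least 2-fold lower was 0.575%, 1% and 5.48%. At 1.5-fold, 3 member probe sets were higher, against 3.29%, 5.88% and 13.7% of all, and at 3-fold 1 was lower, against 0.0384%, 0.0752% and 1.23%. The member on U74Av2 was Utf1, and those on U74Cv2 were another Utf1 probe set, Sall4 and Pou5f1. Without U74Cv2, 1 member probe set was at least 2-fold higher and 0 were lower.

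Pou5f1, which maintains pluripotency and is kept in undifferentiated spermatogonia, was dim on every probe set. The mouse genome holds retrocopies of Pou5f1, and whether its probes also read them was not tested. On U74Av2 probe set 103075_at read 124.6 in WT and 140.7 in Null, at the 43.7th and 46.7th level percentile of the chip. Both values lay just above the floor, and the log2 ratio of 0.17 was smaller than the spread of 0.35. On U74Cv2 170285_at read 283.4 in WT and 83.8 in Null, and only the WT array was above the floor. Its bound was at least 2.28-fold lower in Null (-1.19, spread 0.56). The third probe set, 161159_r_at, read 47.5 and 13.9, with both arrays under the floor of U74Av2. The ratios of the 2 measured Pou5f1 probe sets had opposite signs, with a difference of at least 1.36 on the log2 scale. The value above 0 lay within the spread and turned to -0.10 with the control transcripts taken as 0.

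Sall4, the zinc finger partner of PLZF, exceeded the floor in both genotypes on all 3 chips. On U74Av2 96169_at read 289.7 in WT and 351.9 in Null, a log2 ratio of 0.27 (spread 0.35). On U74Bv2 105629_at read 509.2 and 790, a log2 ratio of 0.63 (spread 0.34), or 1.55-fold higher. On U74Cv2 169650_r_at went the other way, at 2568.1 in WT and 1042.1 in Null. Its log2 ratio of -1.32, or 2.51-fold lower, was 4.22 times the spread of 0.31 at high level. Of the 2093 high-level probe sets of U74Cv2, which include this one, 1.43% were at least 2-fold different, against 18.6% at low level. The Sall4 ratios on U74Bv2 and U74Cv2 differed by 1.95, more than in 98.2% of 2481 same-gene pairs of those chips.

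Utf1, a chromatin protein whose enhancer downstream of the gene is bound by OCT4 and SOX2 in embryonic stem cells, had probe sets that disagreed in sign. On U74Av2 102220_at read 80.9 in WT, under the floor, and 374 in Null, so Utf1 was at least 3.78-fold higher (1.92, spread 0.35). It was among the 4 probe sets at least 3-fold higher on that chip, out of 7822 (0.0511%). On U74Cv2 168612_r_at gave nearly the mirror image, with 374 in WT and 35 in Null. That bound was at least 3.02-fold lower (-1.59, spread 0.56). The other Utf1 probe set of U74Cv2, 170476_r_at, read 332.4 in WT and 367.6 in Null, above the floor on both arrays. Its log2 ratio of 0.12 lay within the spread of 0.56, and with the control transcripts taken as 0 it turned to -0.14. Each pair of Utf1 ratios holds a bound, so the differences are known only as at least 3.51, 1.80 and 1.71.

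Lin28a, the let-7 antagonist, was higher in Null on both chips that carry it. On U74Bv2 110808_at read 625.9 in WT and 916.4 in Null, at the 72.5th and 81.4th level percentile. The log2 ratio of 0.55, or 1.46-fold, exceeded the spread of 0.34, and 93.1% of the measured probe sets of that chip had a lower ratio. On U74Cv2 171405_r_at read 46.7 in WT and 251.3 in Null, so only the Null array was above the floor. Its bound was at least 1.99-fold higher (0.99, spread 0.56), just short of the 2-fold threshold. The Lin28a ratios shared their sign, and since the second is a bound their difference is known only as at least 0.45. A probe set above the floor only in Null can only give a ratio above 0, so the shared sign is no second support. Lowering the floor to the 20th percentile made the U74Cv2 ratio 2.40. With the control transcripts taken as 0, Lin28a stood at 0.31 on U74Bv2 and at a bound of 0.87 on U74Cv2. The value of 0.31 then lay within the spread of 0.34.

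Sox3, a SOX factor whose loss impairs spermatogonial differentiation, was measured by 2 of its 4 probe sets on U74Av2. Probe set 103301_i_at read 943.9 in WT and 1286.3 in Null, a log2 ratio of 0.44 (spread 0.15). Probe set 103302_r_at read 837.7 and 1099.2, a log2 ratio of 0.38 (spread 0.15). The pair was designed on the same accession and is not independent, and the ratios differed by 0.05. These ratios were 2.93 and 2.56 times the spread, but with the control transcripts taken as 0 they were 0.17 and 0.12. The other 3 Sox3 probe sets were under the floor on both arrays. They read 3.2 and 1.7 (161276_i_at), 13.5 and 9.3 (92264_at) and, on U74Bv2, 37.8 and 22.8 (164825_at) in WT and Null. All Sox3 signal above the floor therefore came from 1 of the 4 accessions on which its probe sets were designed.

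Neurog3, the factor of progenitor spermatogonia that elsewhere drives endocrine cells of the pancreas, gave the smallest ratio. On U74Cv2 168070_at read 429.3 in WT and 417.5 in Null, a log2 ratio of -0.06 with a spread of 0.47. On U74Av2 99814_at read 19.4 and 12, with both arrays under the floor. A difference of Neurog3 between genotypes was not detectable at this signal, since 1 smaller than the spread could not be told from scatter between probe sets.

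**Figure D2:**
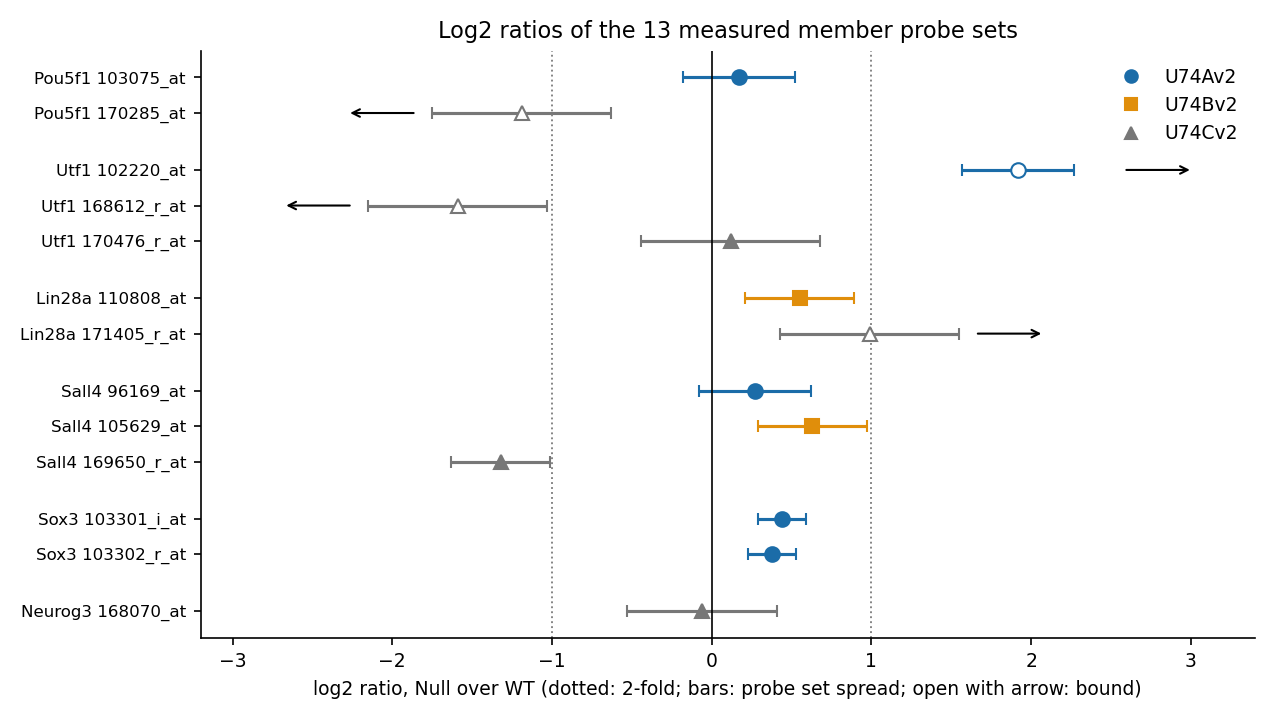
Log2 ratio of Null over WT for the 13 measured member probe sets, by gene, with marker shape and colour for the chip and horizontal bars for the spread between probe sets of 1 gene. Open markers with an arrow are bounds and dotted lines mark 2-fold. Sall4, Utf1 and Pou5f1 have markers on both sides of 0, and Lin28a and Sox3 on 1 side.

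Set probe set against probe set, 5 of the 9 pairs of measured member probe sets had opposite signs and 6 differed by more than 1 on the log2 scale. These counts rest partly on bounds and on ratios within the spread. With the control transcripts taken as 0, 4 pairs had opposite signs, 1 of them resting on the Sall4 ratio of 0.00, and after lowering the floor to the 20th percentile 6 of 11 did and 8 differed by more than 1. Among the 4 pairs above the floor on all their arrays, 2 had opposite signs and differed by more than 1, both of them Sall4 with its U74Cv2 probe set. Among all same-gene pairs 48.1% had opposite signs between U74Av2 and U74Cv2, and 47.7% between U74Bv2 and U74Cv2. Opposite signs among the members are therefore near the background. Differences over 1 were found in 12% and 12.8% of those pairs, and in 21.2% of pairs within U74Cv2, bounds included. Pairs of 1 gene share a probe set, so the 9 pairs are not independent. Between U74Av2 and U74Bv2 the only member pair was that of Sall4, which agreed in sign and differed by 0.36.

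**Figure D3:**
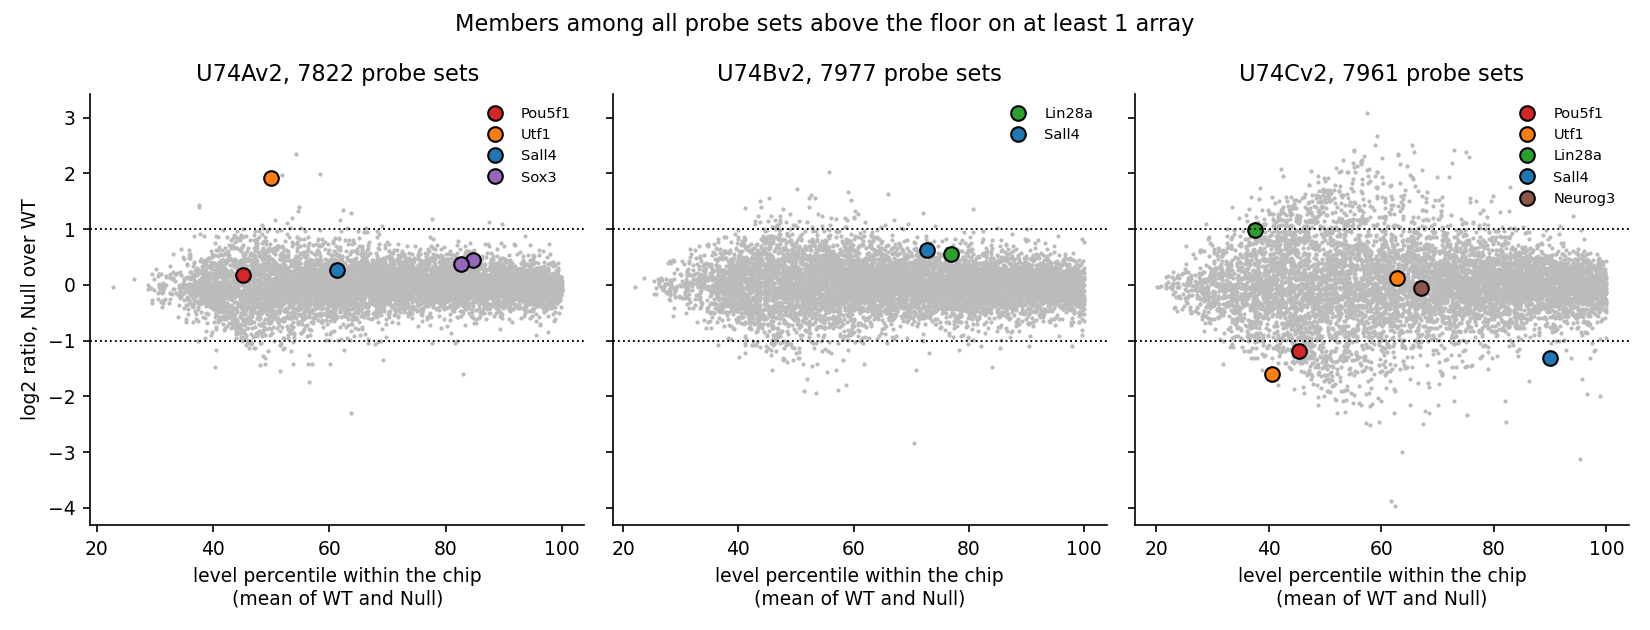
Log2 ratio of Null over WT against level percentile for all probe sets above the floor on at least 1 array (grey) with the members in colour, 1 panel per chip, dotted lines at 2-fold. Utf1 stands at the upper edge on U74Av2 and Sall4 at the lower edge of the bright probe sets on U74Cv2, where the grey cloud is widest.

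The members at least 2-fold lower were read from probe sets of particular kinds, which were tabulated after the members' values were seen. The Sall4 and Utf1 probe sets on U74Cv2 carry the suffix r, with which the maker marked probe sets that did not meet all selection rules, and Pou5f1 there has a plain name. On U74Cv2 9.86% of 1146 probe sets with suffix r were at least 2-fold different, against 11.7% of 5079 with plain names. On U74Av2 these shares were 4.56% and 0.691%. Pou5f1 and that Utf1 probe set belong to the 1681 probe sets of U74Cv2 above the floor on 1 array. Lin28a, of suffix r and higher in Null, belongs there too, and 24.4% of the 1681 were at least 2-fold different. On U74Av2, where Utf1 was higher, 2.57% of the 740 probe sets above the floor on 1 array were. Whether probe design, level or the chip had a part in the member ratios was not tested.

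**Figure D4:**
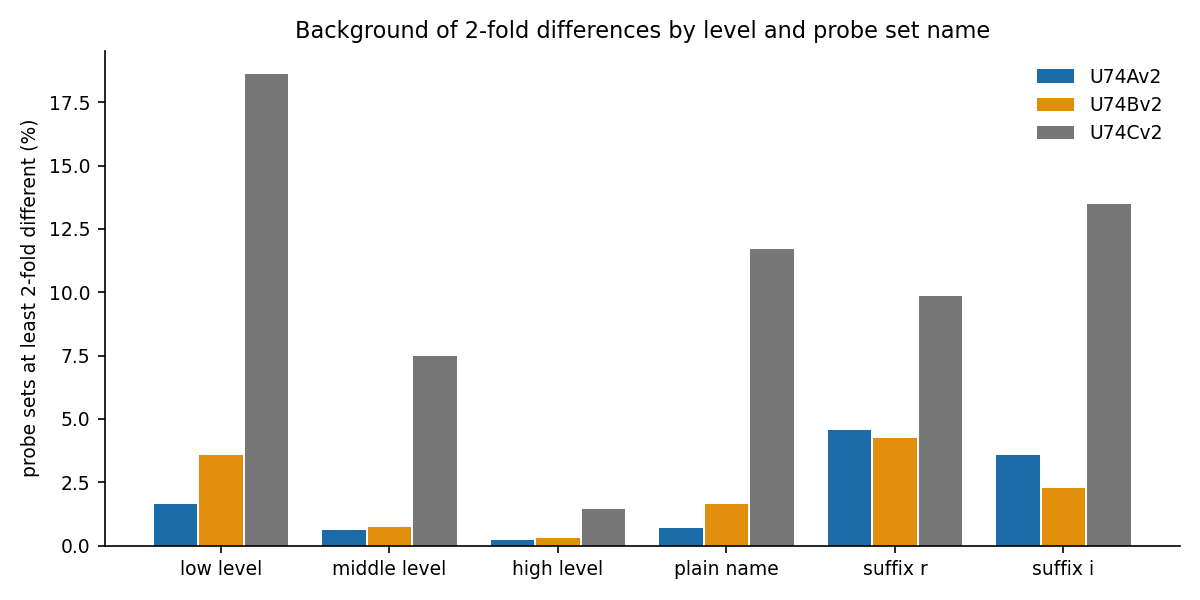
Share of measured probe sets at least 2-fold different in either direction, in percent, by level band and by probe set name on the 3 chips. Low-level probe sets of U74Cv2 reach 18.6%, and its high-level probe sets, among them Sall4, 1.43%.

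With the probe set of highest level percentile standing for each gene, the 6 members had a median log2 ratio of 0.03, against -0.01 over 12447 genes. Above 0 were 3 of the 6, against 48.5% of all genes. Of the 6, 0 were at least 2-fold higher and 2, Sall4 and Pou5f1, at least 2-fold lower. Over all genes 1.41% were at least 2-fold higher and 1.64% lower. Pou5f1 was represented by its U74Cv2 bound of -1.19 in a near tie. Its level percentiles, 58.1 in WT and 32.5 in Null, averaged just above those on U74Av2, 43.7 and 46.7. The U74Av2 probe set gave 0.17, and with it Pou5f1 would count as above 0 and not as lower. With the mean of the measured probe sets of each gene, the member median was 0.04. Without U74Cv2 the median over 5 members was 0.55, with Neurog3 under the floor, against -0.01 over 10344 genes. With plain-named probe sets alone, U74Cv2 included, the median was also 0.55, but over partly other genes. Neurog3 then came in at -0.06, Sox3 dropped out and Pou5f1 stood at -1.19. In both settings the median is the Lin28a value on U74Bv2. Genes whose probe set lay nearest in WT and Null intensity on the same chip, a likeness over only 2 arrays, were Sap130 and Cdca2 for Lin28a and Fbln2 and Smad1 for Sox3. They were Elavl1 and R3hcc1l for Sall4, Rbm39 and Zfp935 for Utf1, and Hmgcll1 and C130071C03Rik for Neurog3.

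Other genes of the pluripotency network did not stand apart from 0 as a list. Of 31 on the chips 21 were measured, 11 above 0 and 10 below, with a median of 0.01, and 0 were 2-fold different in either direction. Nanog and Sox2, the factors that act with OCT4 in embryonic stem cells, were under the floor on all their arrays, as were Zfp42 and Tdgf1. The brightest genes of the list, by level percentile as in the lists that follow, were Jarid2, a Polycomb-associated protein, at 0.41, with 0.10 and -0.10 in other probe sets, and Lefty1, a Nodal antagonist, at 0.13, with -0.28 and -0.37 in others.

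Genes of undifferentiated spermatogonia other than the 6 members had a median of 0.18 over 17 measured genes, 10 above 0. In that list 1 gene was at least 2-fold higher, the GDNF-induced factor Bcl6b at 1.16 from a dim U74Cv2 probe set, and 1 at least 2-fold lower, Zbtb16 itself. Another Bcl6b probe set, on U74Av2, gave a bound of 0.21. The list for differentiating spermatogonia stood at a median of 0.04, with 10 genes measured, with Ccnd2, cyclin D2, at 1.09 (1122.9 in WT and 2412.9 in Null) and the testis protease Prss50 at least 2.37-fold lower.

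General germ cell genes, which label the whole lineage, had a median of 0.15 over 8 genes and 0.56 over 5 without U74Cv2, with 0 at least 2-fold different. The brightest were Mov10l1, a piRNA pathway helicase, at 0.05, or -0.64 by a second probe set, and the surface protein gene Tex101 at -0.53. Singled out after their values were seen, the RNA-binding gene Dazl read 4287.3 in WT and 6372.8 in Null on U74Av2 (0.56) and the helicase gene Ddx4 513.5 and 761.2 (0.56). On another chip, U74Bv2, Lin28a stood at 0.55 and Sall4 at 0.63, while the germ cell genes there were split, Mael at 0.81 and Tex101 at -0.53. Of the 8 germ cell genes 5 were above 0 and 3 below. A dimmer Dazl probe set gave -0.32, and Ddx4 on U74Cv2 gave 0.25. Over the 3 germ cell genes measured on U74Av2 the summed intensity was 5518.3 in WT and 8333.9 in Null, and over the 4 members measured there 1439.1 and 2139.4. Dazl made up most of the former sums and Sox3 most of the latter. The member sums also hold Utf1, at 80.9 in WT and 374 in Null, which passed the floor only through its Null array. Member probe sets under the floor on U74Av2 all read lower in Null and were left out. The rise of the member sum thus rests partly on the floor.

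Somatic markers ran beside these values. The Sertoli list had a median of -0.11 over 17 genes, 11 below 0, with 0 at least 2-fold higher and 2 lower, the homeobox gene Rhox5 at -1.04 and Tsx at -1.02. Its summed intensity on U74Av2 over 15 genes was 47754.7 in WT and 42687.3 in Null, and its brightest genes, Clu and Aard, stood at the 99.6th and 99.5th level percentile of RNA labelled as spermatogonia. Leydig genes had a median of -0.27 over 6 genes, with Hsd17b3, a testosterone synthesis enzyme, at 1.20, and Insl3 under the floor. Macrophage genes had a median of -0.19 over 8 genes, and the 2 of highest level percentile were Laptm5 at -0.45, with -0.01 and -0.19 in other probe sets, and Cx3cr1 at -0.14, with -0.27. Peritubular myoid genes stood at 0.02 over 5, with Mylk at -0.37 (-0.16 and -0.14 in others) and Acta2 at -0.11 (0.67 in another). Endothelial genes stood at 0.12 over 7, with Eng at 0.12 (0.48 in another) and Egfl7 at -0.36 (a bound of 0.18 in another). The part of cell makeup in the member ratios was not tested.

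Among the measured partners and relatives of the members, 0 genes were 2-fold different in either direction. The LIN28 and let-7 list had a median of 0.16 over 14 genes. Its brightest genes were the uridylyltransferase Tut4, which acts with LIN28 on let-7 precursors, at -0.12 and Dicer1 at 0.57, or 0.07 by a second probe set. SALL relatives and NuRD subunits had a median of 0.09 over 13 genes, 10 above 0, with the remodeller Chd4 at 0.01, with 0.58 and -0.07 in others, and the histone binder Rbbp7 at 0.09. The SOX family had a median of 0.00 over 12 genes, with Sox12 at -0.15, or 0.27 in another probe set, and Sox4 at 0.22, with 0.77, -0.05, 0.98 and -0.30 in others. The POU family had -0.19 over 4, with Pou4f1 at -0.43 and Pou3f1 at 0.30. The helix-loop-helix partners and NOTCH targets of NEUROG3 had -0.15 over 13, 9 below 0, with Hes5 at 0.31 and Tcf12 at -0.01, or -0.25 in another probe set. With the control transcripts taken as 0, the medians above 0 of the pluripotency network, both spermatogonial, the germ cell, LIN28, SALL, myoid and endothelial lists all turned below 0, as did that of the 6 members, to -0.24.

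**Figure D5:**
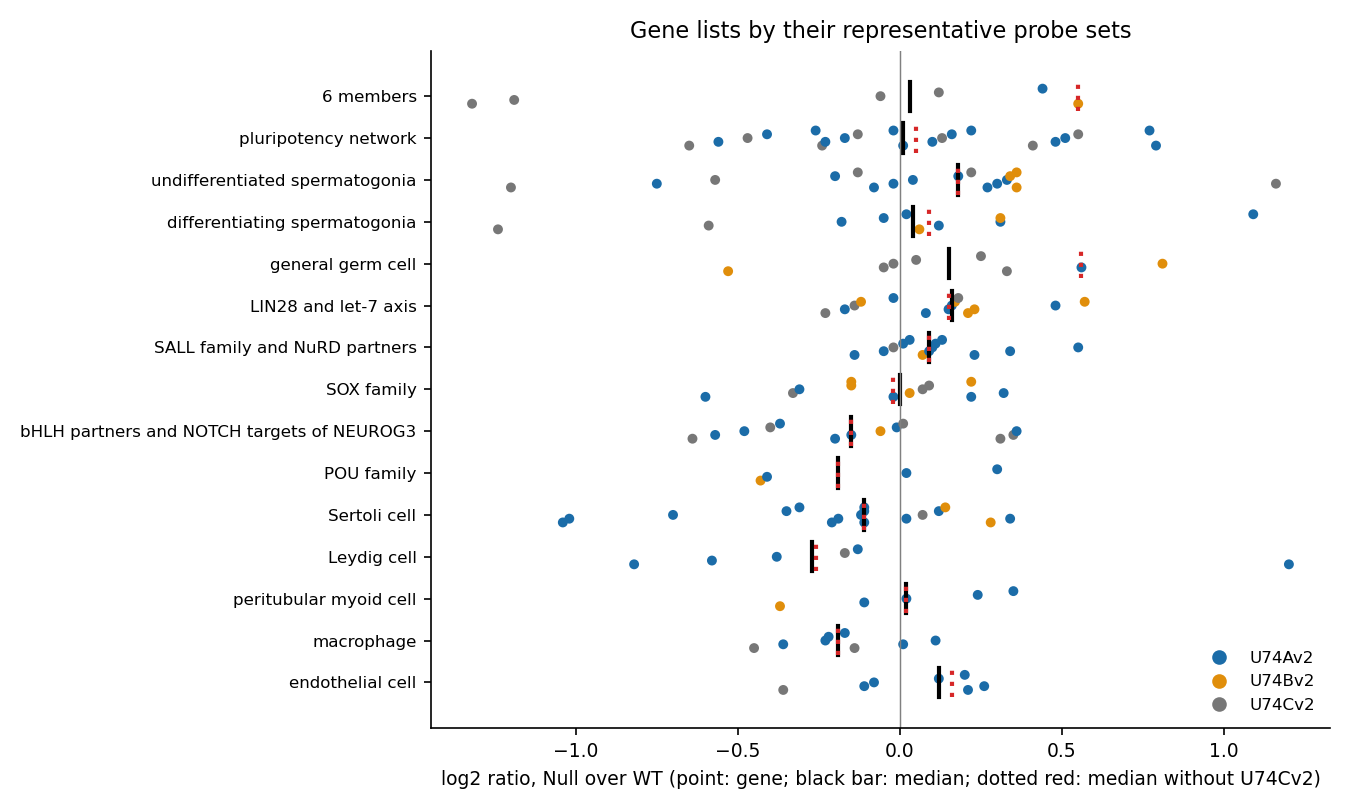
Log2 ratio of Null over WT of each measured gene, by list, from its representative probe set, with colour for the chip, a black bar at the median and a dotted red bar at the median without U74Cv2. The 6 members have medians of 0.03 and 0.55, the largest gap between the bars in the plot, followed by the general germ cell list at 0.15 and 0.56.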

How the data were processed

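Expression was measured on 6 arrays, 1 WT and 1 Null array on each of 3 chips, grouped by the sample titles. The deposited values are linear intensities per probe set. Which software made them is not given in the sources used here. On every array, the mean without the outer 2% of values at each end was between 500.1 and 500.3, so the authors' intensities had been scaled array by array. Each chip was processed alone, without its 66 control probe sets. The Null values were scaled by their median ratio to WT over the upper 50% of mean rank, a log2 shift of 0.01, 0.00 and 0.02. Values under a floor at the 40th percentile were raised to it before log2 was taken, and 2-fold differences were counted.

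Symbols came from GEO's platform annotation, and all 18 member probe sets matched RefSeq (GRCm38.p6) by Entrez identifier. The members and the 14 lists were chosen with earlier results of these data known. Named from each list were up to 4 genes at least 2-fold different, or else the 2 of highest level percentile. Spread was the scaled median absolute difference between probe sets of 1 gene above the floor on both arrays. Steps were tested on simulated data, with less noise than the chips show and with changes only in probe sets well above the floor. Recovery of changes in dim probe sets was not tested. Alternatives changed scaling, floor, threshold, probe set choice and chips. Python 3.11.15, numpy 2.4.6, pandas 2.3.3, statsmodels 0.14.6 and matplotlib 3.10.9 were used.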

Additional observations from a re-analysis of the deposited data

How the results depend on the processing

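No paired analysis was possible because each genotype had 1 array per chip and the labels carry no replicate numbers. For the 13 measured member probe sets, 78 of 88 ratios under another scaling or floor stayed within the probe set spread of the reported value, and 10 moved beyond it. The floor moved the bounds. At the 20th percentile they were -3.07 for Utf1 and -1.78 for Pou5f1 on U74Cv2 and 2.40 for Lin28a there, and with no floor -3.44, -1.78 and 2.40. At the 60th percentile Utf1 stood at 0.33 on U74Av2 and -0.28 on U74Cv2, and Pou5f1 on both chips and Lin28a on U74Cv2 had no ratio. With the control transcripts taken as 0, the Sox3 ratios fell to 0.17 and 0.12. The count of members at least 2-fold higher, reported as 1, was 2 after loess, with the values as deposited, with a lower floor (20th percentile) and with no floor, since Lin28a on U74Cv2 then passed. A higher floor (60th percentile) made it 0, and a 1.5-fold threshold 3. The count at least 2-fold lower, reported as 3, was 1 with that higher floor, at a 3-fold threshold and with plain probe sets alone. It was 4 with no floor and 0 without U74Cv2, a setting chosen after seeing the data. The member median of 0.03 was 0.55 without U74Cv2 and 0.55 with plain probe sets alone, both times the Lin28a value on U74Bv2. The general germ cell median of 0.15 was 0.56 and 0.44 in those settings. The other 137 list medians under these settings moved by no more than about the middle-level spread of U74Av2, 0.27. With the control transcripts taken as 0 most moved by about that much, as the Sertoli median did from -0.11 to -0.38. Over these settings 12 list medians changed sign. The pluripotency network median of 0.01 turned to -0.13 with the lower floor, -0.17 with no floor and -0.02 with the mean of all probe sets, and the myoid median to -0.05 with plain probe sets alone. Signal under the floor in 1 genotype leaves only bounds for a Utf1 probe set on each of its chips and for Pou5f1 and Lin28a on U74Cv2.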

Other observations

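The inhibitors of helix-loop-helix factors, Id1 to Id4, were all lower in the Null array on U74Av2. They were singled out after their values were seen, and each has 1 probe set. Id2 read 1419.5 in WT and 1022.8 in Null, a log2 ratio of -0.48, and Id1 451.7 and 350.9, a ratio of -0.37. Id3 stood at -0.15 and Id4, a marker of spermatogonial stem cells, at -0.20 near the floor. All 4 stayed below 0 under each scaling run. Id2 and Id1 exceeded the spread of their level on that chip, and Id3 and Id4 did not.

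Among pluripotency genes, the primordial germ cell marker Dppa3 read 123.4 in WT and 215.3 in Null on U74Av2 (0.79). Dppa4 read 490.6 and 700.7 there (0.51). Both were above 0 under each scaling, at 0.53 and 0.24 with the control transcripts taken as 0. The pluripotency network list as a whole was split, with 11 genes above 0 and 10 below. Those below 0 include Esrrb at -0.65, Nr0b1 at -0.56 and Dppa5a at -0.23. The germ cell gene Mael read 328.7 and 578 on U74Bv2 (0.81). Of the microRNA processing genes, Drosha gave 0.19 and 0.21 on U74Bv2 but -0.78 on U74Cv2, and Dgcr8 gave 0.17 and -0.41 on U74Bv2. Drosha, like Sall4, thus had its lower value on U74Cv2, while Lin28a and Bcl6b had their higher value there. These genes were also singled out after their values were seen.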
